A study of Caenorhabditis elegans with 18 samples.

Results

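Transcripts of 10 genes that time larval development or drive the moulting cycle of Caenorhabditis elegans were followed across 6 groups of whole animals. The genes were listed by symbol: nhr-23, nhr-25, lin-42, lin-29, lin-28, lin-14, lin-41, blmp-1, grh-1 and bed-3. All 10 were found among the 23368 genes of the count table, and all 10 passed the filter on low counts that left 10981 genes for testing. They also passed it in the other 15 libraries when the nhr-45 libraries in antimycin were set aside. The groups were nhr-45(tm1307) mutants in antimycin, nhr-45(tm1307) mutants in DMSO, nhr-178(gk1005) mutants in antimycin, nhr-178(gk1005) mutants in DMSO, wild-type N2 animals (WT) in antimycin and WT in DMSO, with 3 libraries each. nhr-45 and nhr-178 encode nuclear hormone receptors, which are transcription factors, and antimycin A, given at 0.3 µM, blocks respiratory complex III. All animals were raised from the first larval stage on agar with Escherichia coli HT115, after 18 hours of larval arrest, and at least 1000 were pooled for a sample. Every sample is labelled adult, with RNA described as taken from early adults, so a gene of a larval moult is measured here in animals labelled adult. Whether all animals of each group had completed the last moult was not measured.

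Larval fates in C. elegans follow a fixed order set by the heterochronic genes, and each larval stage ends with a moult, in which the epidermis builds a new cuticle and sheds the old one. LIN-14 and LIN-28 act in early larvae and are shut off by microRNAs, LIN-41 is held down by the let-7 microRNA late in larval life, and LIN-29 then drives the switch to the adult epidermis and the end of moulting. Other regulators, among them NHR-23, NHR-25, GRH-1, BLMP-1, BED-3 and the Period-related LIN-42, act once in every moulting cycle, and several of their transcripts rise and fall with it. The question put to the data was whether nhr-45 mutants in antimycin carry a younger pattern of these transcripts than the other groups.

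Library totals lay between 1772887 counts (nhr-45 in antimycin, replicate 2) and 9488037 counts (WT in DMSO, replicate 3), and the next shallowest was WT in antimycin, replicate 1, with 3143437. These 2 are the shallow libraries named further on. Principal component 1, with 42.3% of the variance, set all 3 libraries of nhr-45 in antimycin away from the other 15. Counts of the mutated genes gave no check of the genotypes, as nhr-45 averaged 6.31 and 4.29 CPM in nhr-45 mutants in antimycin and in DMSO, against 7.19 and 5.88 CPM in WT in antimycin and in DMSO, and nhr-178 had 22 counts over nhr-178 mutants in antimycin, the most of any group, and 2 in DMSO. CPM is the count divided by the scaled library size, per 1e+06 counts. The triplicates are described as biological, with no word on separate cultures, so a p-value speaks only to the spread among the libraries at hand.

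In nhr-45 mutants, antimycin changed 6 of the 10 regulators: lin-42, bed-3, lin-29, grh-1 and lin-14 rose and lin-41 fell. The early gene lin-14 and the late gene lin-29 were thus higher in the same libraries. Each library is a pool of at least 1000 animals, so whether single animals carried both was not measured. The early gene lin-28, the moult regulators nhr-23, nhr-25 and blmp-1 and the adult collagen col-19, a target of LIN-29, were not called. Of all tested genes 23.5% were called in this comparison, 15.2% higher and 8.33% lower. The median log2 fold change of the 10 was 0.76, against 0.00 over all tested genes. A gene is called where the quasi-likelihood test of edgeR gives a Benjamini-Hochberg adjusted p below 0.05. In WT animals antimycin raised 1 of the 10, lin-42, where 3.01% of all genes were called, 2.07% higher and 0.938% lower. In nhr-178 mutants it changed 0 of the 10 by edgeR, with 0 at an unadjusted p under 0.05 and 0 by DESeq2, and 2.70% of all genes were called.

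The 10 genes differed widely in abundance. Divided by exon length, the mean level over all 18 libraries was highest for lin-41 at 140 CPM per kb, then lin-28 at 50.1, lin-14 at 26.9 and nhr-23 at 26.2 CPM per kb. It was 5.31 CPM per kb for lin-29, 3.85 for grh-1, 3.69 for blmp-1, 1.92 for lin-42, 1.77 for bed-3 and 0.580 for nhr-25. The early genes lin-14 and lin-28 thus stood above the late gene lin-29 on this scale in these libraries. Low abundance limits the precision for nhr-25, with 1 to 23 counts in a library, for bed-3, with 5 to 64, and for lin-42, with 6 to 302.

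**Figure D1:**
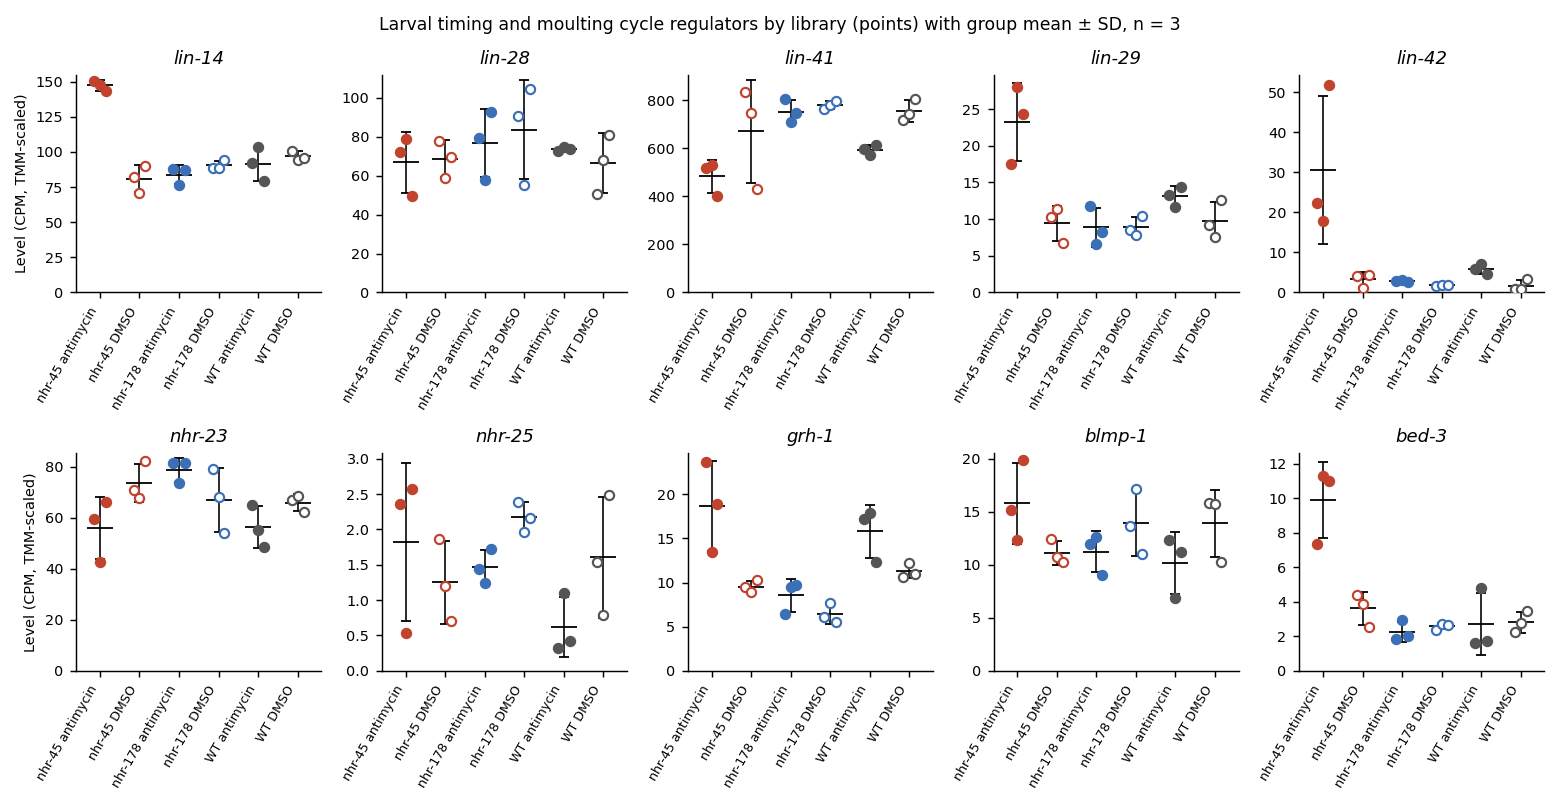
Level of each of the 10 regulators in CPM (vertical axes, each from 0) in the 3 libraries (points) of each of the 6 groups, with the mean and SD. For lin-42, lin-29, lin-14 and bed-3 all 3 nhr-45 libraries in antimycin lie above the 15 others. The share of all tested genes with this order, or without overlap between compared groups, was not computed.

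lin-14 encodes a nuclear factor that specifies early larval fates and is the target of the lin-4 microRNA. It lies at X:11465560-11485871 of the WBcel235 annotation, with exons that overlap 2 snoRNA genes which held 3 counts in all, against 10989 for lin-14. Its level was 151, 148 and 143 CPM in nhr-45 in antimycin and 82.4, 70.5 and 89.9 CPM in nhr-45 in DMSO. It was 87.8, 76.4 and 87.4 CPM in nhr-178 in antimycin and 88.8, 88.2 and 94.3 CPM in nhr-178 in DMSO. It was 92.4, 103 and 79.2 CPM in WT in antimycin and 101, 94.2 and 96.0 CPM in WT in DMSO. The nhr-45 libraries in antimycin were thus alone above the rest, which lay close together. Antimycin raised lin-14 by a log2 fold change of 0.87 ± 0.14 in nhr-45 mutants (SE, adjusted p = 3.01e-05), a 1.82-fold rise. In WT the change was -0.08 ± 0.14 (adjusted p = 0.847) and in nhr-178 mutants -0.11 ± 0.14 (adjusted p = 0.828).

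lin-28 (I:8407630-8410804) encodes an RNA-binding protein of early larvae that holds back let-7. In nhr-45 mutants it had 72.2, 79.1 and 49.4 CPM in antimycin and 77.9, 59.1 and 69.6 CPM in DMSO, and these ranges overlap. Its group means ran from 66.5 to 83.7 CPM, and each group overlapped the next in order. Its log2 fold change for antimycin in nhr-45 mutants was -0.06 ± 0.22, with a 95% interval of -0.51 to 0.39 (adjusted p = 0.877), and lin-28 was called in no comparison. Changes within that interval remain compatible with these libraries.

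lin-41 (I:9334800-9342496), a TRIM-NHL RNA-binding protein that opposes adult fates and also acts in growing oocytes, was the most abundant of the 10. It had 518, 529 and 403 CPM in nhr-45 in antimycin and 833, 748 and 429 CPM in nhr-45 in DMSO. It had 804, 708 and 746 CPM in nhr-178 in antimycin and 764, 779 and 797 CPM in nhr-178 in DMSO, and 597, 571 and 613 CPM in WT in antimycin and 718, 745 and 806 CPM in WT in DMSO. Replicate 3 of nhr-45 in DMSO was as low as the nhr-45 libraries in antimycin, so those groups overlap, while the antimycin and DMSO libraries of WT do not. The log2 fold change for antimycin was -0.47 ± 0.16 in nhr-45 mutants (adjusted p = 0.0289) and -0.35 ± 0.16 in WT (adjusted p = 0.29), and the interaction, which tests whether the nhr-45 response differs from that of WT, was -0.13 ± 0.22 (adjusted p = 0.819). The nhr-45 call was lost without nhr-45 in antimycin replicate 3 (-0.36, adjusted p = 0.155), without nhr-45 in DMSO replicate 1 (-0.28, adjusted p = 0.24) or replicate 2 (-0.40, adjusted p = 0.107), and in a fit of both groups alone (adjusted p = 0.118), and over all 13 other settings the adjusted p ran from 0.000129 to 0.24.

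Oocyte markers were also lower in nhr-45 mutants in antimycin. Of 18 oocyte and eggshell genes, 16 were lower in nhr-45 mutants in antimycin than in DMSO and 2 were not called, with a median log2 fold change of -0.54. Over all tested genes 8.33% were called lower. Their summed level was 9695 to 10342 CPM in nhr-45 in antimycin and 14105 to 15686 CPM in nhr-45 in DMSO, and 12869 to 13482 CPM in WT in antimycin and 14395 to 17585 CPM in WT in DMSO. In WT antimycin changed 0 of the 18 by edgeR, with 9 at an unadjusted p under 0.05 and a median of -0.25. The nhr-45 interaction was called for 0 of the 18. Replicate 3 of nhr-45 in DMSO, with lin-41 at 429 CPM, had an oocyte sum of 14105 CPM, above every nhr-45 library in antimycin. In whole animals fewer oocytes and less RNA per oocyte cannot be told apart, and the part of oocyte content in the lin-41 difference was not tested.

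lin-29 (II:11917642-11935343) encodes the zinc finger factor of the larval-to-adult switch, a late step of the pathway. Its level was highest in nhr-45 in antimycin, at 17.5, 28.0 and 24.4 CPM, against 10.3, 11.3 and 6.75 CPM in nhr-45 in DMSO. It was 11.8, 6.56 and 8.30 CPM in nhr-178 in antimycin and 8.47, 7.88 and 10.5 CPM in nhr-178 in DMSO. It was 13.3, 11.6 and 14.4 CPM in WT in antimycin and 9.25, 7.60 and 12.6 CPM in WT in DMSO. All 3 nhr-45 libraries in antimycin lay above the 15 others, whose groups overlap in order. The log2 fold change for antimycin was 1.24 ± 0.26 in nhr-45 mutants (adjusted p = 0.000982), 0.41 ± 0.26 in WT (adjusted p = 0.493) and -0.04 ± 0.27 in nhr-178 mutants (adjusted p = 0.985). The exons of lin-29 share 2 bases with hmg-12 on the other strand, which had 158169 counts over all libraries against 1308 for lin-29, and the use of strand in counting is not given in the sources used here. mab-10, whose product works with LIN-29 to end moulting, was at 6.67 ± 4.14 CPM in nhr-45 in antimycin and 4.94 ± 0.272 CPM in nhr-45 in DMSO (SD, n = 3 each; adjusted p = 0.249).

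lin-42 (II:1233236-1252359), the Period relative whose transcript cycles with the moults, showed the largest change of the 10. It had 22.2, 17.7 and 51.8 CPM in nhr-45 in antimycin and 4.13, 1.19 and 4.42 CPM in nhr-45 in DMSO. It had 2.89, 3.05 and 2.72 CPM in nhr-178 in antimycin and 1.52, 1.97 and 1.83 CPM in nhr-178 in DMSO. It had 5.86, 7.19 and 4.55 CPM in WT in antimycin and 0.949, 0.786 and 3.35 CPM in WT in DMSO. In each genotype every antimycin library was above every DMSO library. The log2 fold change was 3.29 ± 0.43 in nhr-45 mutants (adjusted p = 2.18e-06, 9.80-fold), 1.73 ± 0.48 in WT (adjusted p = 0.0467) and 0.69 ± 0.53 in nhr-178 mutants (adjusted p = 0.686).

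Single libraries weighed on the lin-42 values. Without replicate 3 of nhr-45 in antimycin, the highest library, the log2 fold change in nhr-45 mutants was 2.66 (adjusted p = 0.000121). The WT call was lost without any 1 of the 3 WT libraries in antimycin, without WT in DMSO replicate 1 or 2, without both shallow libraries and in a fit of both groups alone, with adjusted p of 0.0672 to 0.219, against 0.000509 to 0.219 over all 13 settings. Without WT in DMSO replicate 3 the WT log2 fold change was 2.72 (adjusted p = 0.00471).

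bed-3 (IV:9916524-9921967), a zinc finger gene required for moulting, also stood out in nhr-45 in antimycin, with 7.34, 11.3 and 10.98 CPM, against 4.39, 3.88 and 2.56 CPM in nhr-45 in DMSO. The other groups had 1.63 to 4.79 CPM, so no library of another group reached the nhr-45 libraries in antimycin. The log2 fold change for antimycin was 1.39 ± 0.37 in nhr-45 mutants (adjusted p = 0.00815), -0.03 ± 0.41 in WT (adjusted p = 0.986) and -0.17 ± 0.42 in nhr-178 mutants (adjusted p = 0.934). Its exons share 30 bases with dur-1 on the other strand, which had 709 counts over all libraries against 426 for bed-3.

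grh-1 (I:1258201-1268155), a Grainyhead factor of epidermal barriers that is needed at each moult, differed by genotype as well as by antimycin. It had 23.7, 13.4 and 18.9 CPM in nhr-45 in antimycin and 9.45, 8.95 and 10.2 CPM in nhr-45 in DMSO. It had 6.41, 9.497 and 9.73 CPM in nhr-178 in antimycin and 6.08, 7.73 and 5.49 CPM in nhr-178 in DMSO. It had 17.2, 17.9 and 12.4 CPM in WT in antimycin and 10.7, 12.2 and 10.9 CPM in WT in DMSO. The nhr-45 and WT libraries in antimycin overlap, and both groups lie above their DMSO libraries. The log2 fold change for antimycin was 1.02 ± 0.24 in nhr-45 mutants (adjusted p = 0.00277), 0.48 ± 0.23 in WT (adjusted p = 0.348) and 0.42 ± 0.25 in nhr-178 mutants (adjusted p = 0.564), and the nhr-45 response did not differ from that of WT beyond its error (interaction 0.54 ± 0.33, 95% interval -0.15 to 1.23, adjusted p = 0.404).

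nhr-23 (I:7214745-7221299) encodes the ROR-type receptor that starts each moulting cycle and also acts in sperm formation. It had 59.5, 42.5 and 66.0 CPM in nhr-45 in antimycin and 71.1, 67.7 and 82.2 CPM in nhr-45 in DMSO. It had 81.6, 73.5 and 81.4 CPM in nhr-178 in antimycin and 79.0, 68.4 and 53.9 CPM in nhr-178 in DMSO, and 65.1, 55.3 and 48.6 CPM in WT in antimycin and 67.04, 68.8 and 62.1 CPM in WT in DMSO. The nhr-45 libraries in antimycin were below those in DMSO, by a log2 fold change of -0.37 ± 0.17 that missed the threshold (adjusted p = 0.117), and in order of means every group overlapped the next. A list of 22 sperm genes summed to 185 to 226 CPM in nhr-45 in antimycin, 26.9 to 36.3 CPM in nhr-45 in DMSO, 13.8 to 17.7 CPM in WT in antimycin and 7.33 to 9.63 CPM in WT in DMSO, and the part of sperm content in the nhr-23 level was not tested. Of 14 sperm genes tested, 9 passed the filter only through the nhr-45 libraries in antimycin, and antimycin raised the other 5 in nhr-45 mutants. Over all tested genes 15.2% were called higher.

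blmp-1 (I:10409302-10414773), a Blimp-1 relative that sets the timing of epidermal programmes, had 15.1, 12.4 and 19.9 CPM in nhr-45 in antimycin and 12.4, 10.7 and 10.2 CPM in nhr-45 in DMSO. The ranges meet at 1 library each, and the log2 fold change of 0.53 ± 0.26 was not called (adjusted p = 0.136). nhr-25 (X:13008493-13013964), a receptor of the Ftz-F1 class that is required for moulting, had 2.37, 0.538 and 2.57 CPM in nhr-45 in antimycin and 1.86, 1.19 and 0.699 CPM in nhr-45 in DMSO. With 36 and 25 counts over these groups, its log2 fold change of 0.66 had a 95% interval of -0.52 to 1.84 (adjusted p = 0.432), which is too wide to show a change of the size seen for lin-29 or grh-1.

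**Figure D2:**
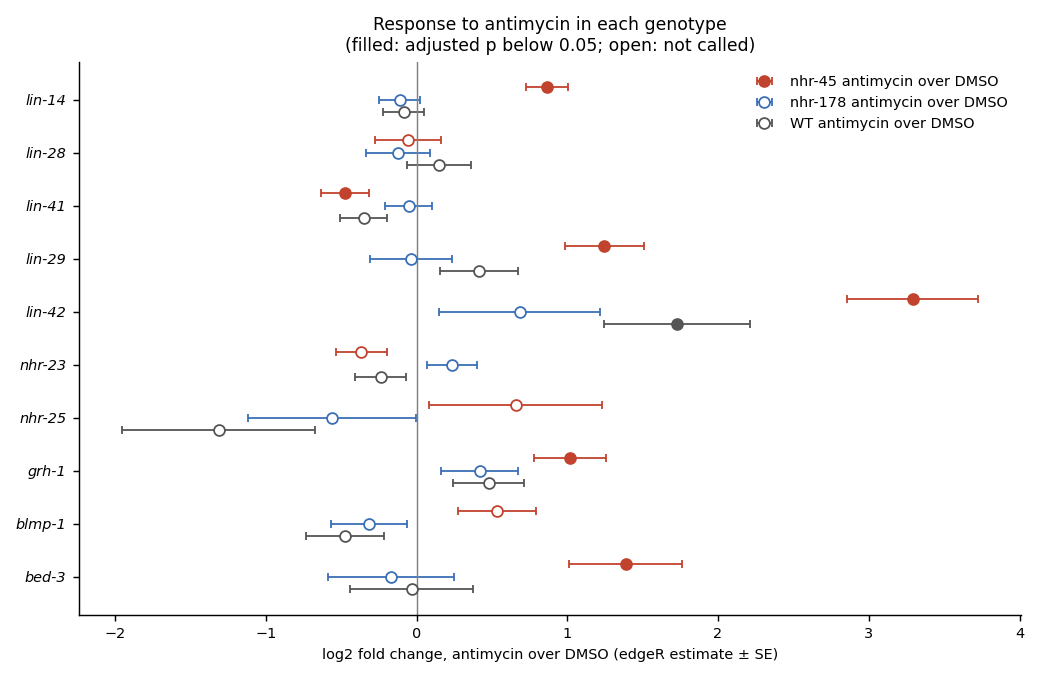
Log2 fold change for antimycin over DMSO (horizontal axis, edgeR estimate with its SE) of each regulator in nhr-45, nhr-178 and WT animals, filled where the adjusted p is below 0.05. The filled points are 6 in nhr-45 mutants and 1, lin-42, in WT.

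Set against WT in antimycin, nhr-45 mutants in antimycin had higher lin-42, bed-3, lin-29 and lin-14, which is 4 of the 10, with 15.1% of all genes called, 10.7% higher and 4.37% lower. The log2 differences were 2.42 ± 0.41 for lin-42 (adjusted p = 1e-04), 1.80 ± 0.40 for bed-3 (adjusted p = 0.00173), 0.79 ± 0.26 for lin-29 (adjusted p = 0.0375) and 0.69 ± 0.14 for lin-14 (adjusted p = 0.000609). For these 4 genes the groups do not overlap. Nor do they for lin-41 and blmp-1, which were not called (adjusted p = 0.23 and 0.0815). The share of all tested genes without overlap was not computed. The median of the 10 was 0.69, against 0.01 over all tested genes. grh-1, which rose with antimycin in nhr-45 mutants, differed from WT in antimycin by 0.30 ± 0.23 (adjusted p = 0.456). The lin-29 call was lost with no filter on low counts (adjusted p = 0.0552), without both shallow libraries (adjusted p = 0.167), without replicate 2 or 3 of nhr-45 in antimycin (adjusted p = 0.116 and 0.121) and without WT in antimycin replicate 1, 2 or 3 (adjusted p = 0.0795, 0.145 and 0.072), with 0.0212 to 0.167 over all 13 other settings. Without replicate 3 of nhr-45 in antimycin the lin-42 difference was 1.80, and without replicate 2 of WT in antimycin the bed-3 difference was 2.49, both still called.

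The same nhr-45 libraries were set against nhr-178 mutants in antimycin, and 7 of the 10 regulators were called, with 24.1% of all genes called, 15.8% higher and 8.25% lower. lin-42 was higher by 3.43 ± 0.43 on the log2 scale, bed-3 by 2.05 ± 0.39, lin-29 by 1.38 ± 0.26, grh-1 by 1.16 ± 0.24 and lin-14 by 0.81 ± 0.14, with adjusted p of 7.35e-07 to 0.000576. lin-41 was lower, at -0.64 ± 0.16 (adjusted p = 0.00323), and nhr-23 was lower, at -0.47 ± 0.17 (adjusted p = 0.0446). In both of these genes the groups do not overlap, and the share of all tested genes without overlap was not computed. The nhr-23 call was lost in 10 of 13 other settings, among them DESeq2 (adjusted p = 0.0558), removal of nhr-45 in antimycin replicate 1 or 2 (adjusted p = 0.0725 and 0.24) and removal of nhr-178 in antimycin replicate 1, 2 or 3 (adjusted p = 0.0835, 0.0698 and 0.0985), with 0.0291 to 0.24 over all 13. Without replicate 3 of nhr-45 in antimycin the lin-42 difference was 2.80. Markers of several tissues moved in the same comparison: 10 of 11 body muscle genes were higher, with a median log2 difference of 0.70, 3 of 10 neuron genes were higher, with a median of 0.65, and 17 of 18 oocyte and eggshell genes were lower, with a median of -0.60. Without replicate 2 of nhr-45 in antimycin 5 neuron genes were higher. Of 10 epidermal genes that do not cycle with the moult and pass the filter without the nhr-45 libraries in antimycin, 4 were higher, with a median of 0.50, and all 5 sperm genes that pass it were higher. The part of tissue content in the differences of the regulators was not tested.

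nhr-178 mutants in antimycin differed from WT in antimycin in 1 of the 10, grh-1, with 3.63% of all genes called, 1.12% higher and 2.51% lower. grh-1 was lower by a log2 difference of -0.86 ± 0.24 (adjusted p = 0.0414). Its libraries in these groups do not overlap, and the share of all tested genes without overlap was not computed. The call was lost in 9 of 13 other settings, with adjusted p over all of them of 0.0254 to 0.195: among these were the removal of nhr-178 in antimycin replicate 1, 2 or 3 (0.191, 0.0709 and 0.0792) and of WT in antimycin replicate 1 or 2 (0.104 and 0.195). Some body muscle and neuron markers, tissues outside the epidermis, were lower in the same comparison: 4 of 11 muscle genes and 2 of 10 neuron genes, with medians of -0.47 and -0.37 on the log2 scale. Of 10 epidermal genes that do not cycle with the moult and pass the filter without the nhr-45 libraries in antimycin, 1 was lower. Their median was -0.24, and the part of tissue content in the grh-1 difference was not tested.

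**Figure D3:**
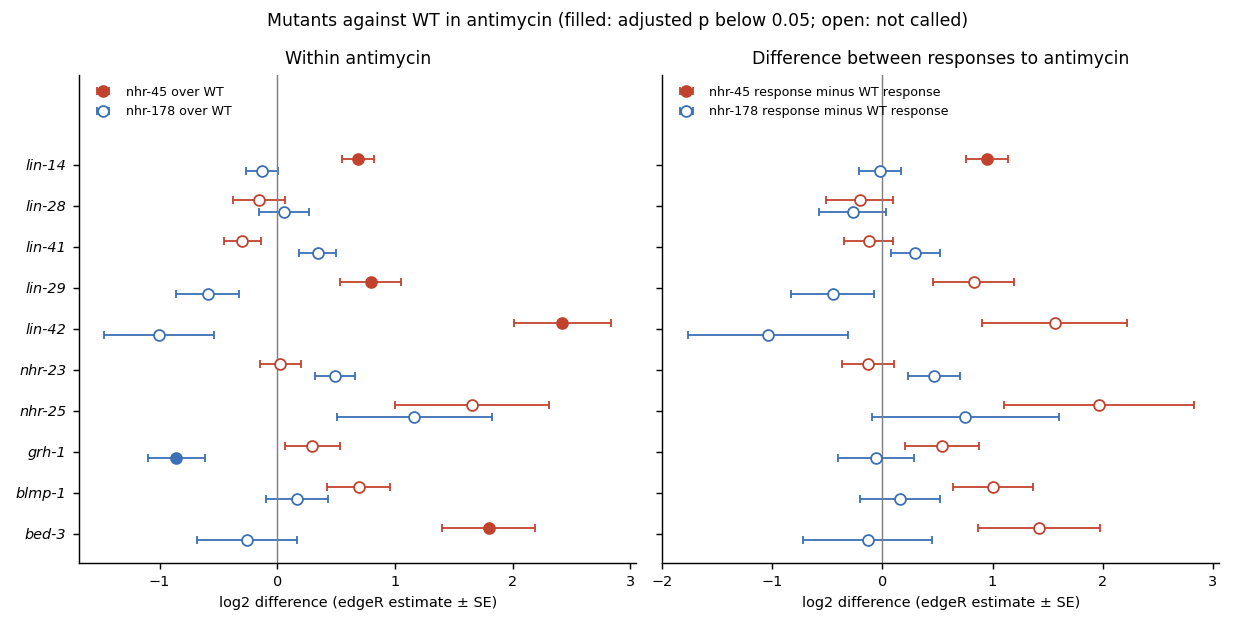
Log2 differences in antimycin (horizontal axes, edgeR estimate with its SE) of each regulator between mutants and WT, and for the interaction of each mutant with antimycin, filled where the adjusted p is below 0.05. lin-42, bed-3, lin-29 and lin-14 are filled for nhr-45 against WT, grh-1 for nhr-178 against WT and lin-14 for the nhr-45 interaction.

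The interaction asked whether the response to antimycin differed between genotypes. For nhr-45 it was called for 1 of the 10, lin-14, at 0.95 ± 0.19 on the log2 scale (adjusted p = 0.00279), with 4.68% of all genes called, 3.39% higher and 1.29% lower. This call held in all 19 other settings run, between 0.84 and 1.03. A further 5 regulators had an unadjusted p under 0.05, and their values were 1.97 ± 0.86 for nhr-25, 1.57 ± 0.66 for lin-42, 1.42 ± 0.55 for bed-3, 1.01 ± 0.36 for blmp-1 and 0.83 ± 0.37 for lin-29, with adjusted p of 0.117 to 0.215. bed-3 was called without replicate 2 of WT in antimycin (2.12, adjusted p = 0.0345). For nhr-178 the interaction was called for 0 of the 10 by edgeR, with 0 at an unadjusted p under 0.05 and 0 by DESeq2, and 0.264% of all genes were called. The nhr-45 and nhr-178 interactions share the WT libraries.

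In DMSO no regulator was called between a mutant and WT. nhr-45 mutants differed from WT in 0 of the 10 by edgeR, with 0 at an unadjusted p under 0.05 and 0 by DESeq2, and 1.54% of all genes were called. The 95% intervals of the log2 difference ran from -0.54 to 0.01 for lin-14, from -0.57 to 0.50 for lin-29 and from -0.18 to 1.89 for lin-42. nhr-178 mutants likewise differed in 0 of the 10 by edgeR and 0 by DESeq2, with 1.15% of all genes called and 0.974% called lower. The 1 gene with an unadjusted p under 0.05 was grh-1, lower at -0.80 ± 0.25 (adjusted p = 0.15).

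Among other genes of the heterochronic pathway, apl-1 had the largest called change. Of 18 tested in nhr-45 mutants, antimycin raised 4, lowered 1 and left 13 not called, with a median log2 fold change of 0.19, against 23.5% called over all tested genes (15.2% higher, 8.33% lower) and a median of 0.00. apl-1 encodes the amyloid precursor relative whose transcription in the epidermis is under heterochronic control, and it rose by 0.68 ± 0.12 (adjusted p = 0.000148). puf-9, a Pumilio-family gene, rose by 0.61 ± 0.19 (adjusted p = 0.0204). The Argonautes of the microRNA pathway moved apart, with alg-1 higher at 0.54 ± 0.16 (adjusted p = 0.0157) and alg-2 lower at -0.58 ± 0.20 (adjusted p = 0.0379). hbl-1, an early larval transcription factor, had 0.37 ± 0.38 (adjusted p = 0.506) and daf-12, the receptor that ties timing to nutrition, 0.42 ± 0.22 (adjusted p = 0.178). These counts rest on single libraries: without nhr-45 in antimycin replicate 3 the list had 1 higher gene and without nhr-45 in DMSO replicate 3 it had 1 higher and 2 lower, without nhr-45 in DMSO replicate 2 it had 2 higher and 1 lower, and without replicate 1 of either nhr-45 group 3 higher. With no filter it had 2 higher and 1 lower, and in a fit of both groups alone 2 higher.

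Of 12 other regulators of the moulting cycle, 4 rose with antimycin in nhr-45 mutants and 8 were not called, with a median of 0.47, where 15.2% of all tested genes were called higher. nhr-91, a nuclear receptor gene, was at 19.8 ± 10.6 CPM in nhr-45 in antimycin and 5.14 ± 0.857 CPM in nhr-45 in DMSO (SD, n = 3 each), a log2 fold change of 1.98 ± 0.35 (adjusted p = 0.000135). myrf-1, a membrane-bound transcription factor needed for larval development, rose by 1.40 ± 0.36 (adjusted p = 0.00609). pan-1, a leucine-rich repeat membrane protein that acts with MYRF-1, rose by 1.14 ± 0.15 (adjusted p = 3.28e-06), and elt-3, an epidermal GATA factor, by 0.77 ± 0.20 (adjusted p = 0.00701). In WT antimycin lowered 1 of the 12, ztf-6, at -0.82 ± 0.19 (adjusted p = 0.0137), a call lost without replicate 1 of WT in antimycin and without replicate 1 or 3 of WT in DMSO.

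Genes that carry out the moult were also higher in nhr-45 mutants in antimycin. The list of 24 effectors (proteases, protease inhibitors, apical matrix and signalling proteins of the moult) had a summed level of 606 to 666 CPM in nhr-45 in antimycin, 112 to 162 CPM in nhr-45 in DMSO, 151 to 164 CPM in WT in antimycin and 125 to 143 CPM in WT in DMSO. Of its 22 tested genes, 9 passed the filter only through the nhr-45 libraries in antimycin, and of the other 13, antimycin raised 11 in nhr-45 mutants. The median log2 fold change of these 13 was 2.42, and 15.2% of all tested genes were called higher. The effector gene mlt-8 was at 191 ± 14.2 CPM in nhr-45 in antimycin and 6.51 ± 1.42 CPM in nhr-45 in DMSO (SD, n = 3 each), a log2 fold change of 4.90 ± 0.26 (adjusted p = 6.93e-14). acn-1, a relative of angiotensin-converting enzyme needed for moulting, rose by 2.42 ± 0.31 (adjusted p = 1.6e-06). In WT 2 of the 13 rose, and 2 over all 22 tested, where 2.07% of all tested genes were called higher. Among them was mlt-8 at 0.95 ± 0.27 (adjusted p = 0.0493). In nhr-178 mutants 0 of the 22 were called by edgeR, with 3 at an unadjusted p under 0.05. The WT count over the whole list was 0 without replicate 1 of WT in DMSO or replicate 3 of WT in antimycin. It was 1 without replicate 2 or 3 of WT in DMSO or replicate 2 of WT in antimycin. It was 4 with no filter, and 1 with DESeq2 size factors in edgeR, with the replicate block, in the compared groups alone and without both shallow libraries.

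A list of collagens of the annular furrows and the moult, which build each new cuticle, was higher there too. Its 16 genes summed to 1163 to 1923 CPM in nhr-45 in antimycin, 29.2 to 75.4 CPM in nhr-45 in DMSO, 48.5 to 114 CPM in WT in antimycin and 25.9 to 39.4 CPM in WT in DMSO. Most of the sum came from sqt-3 and col-17, with means of 155 and 62.8 CPM over the 18 libraries. The sum therefore does not speak for each listed gene, nor for the furrow collagens by themselves. Of 12 tested, 8 passed the filter without the nhr-45 libraries in antimycin, and antimycin raised all 8 in nhr-45 mutants. dpy-13 was at 97.5 ± 14.1 CPM in nhr-45 in antimycin, 1.66 ± 0.644 CPM in nhr-45 in DMSO, 4.07 ± 0.455 CPM in WT in antimycin and 0.613 ± 0.314 CPM in WT in DMSO (SD, n = 3 each). It also rose in WT, by 2.64 ± 0.37 on the log2 scale (adjusted p = 3.24e-05), and in nhr-178 mutants, by 1.88 ± 0.48 (adjusted p = 0.0249). Of the 8 that pass the filter without the nhr-45 libraries in antimycin, antimycin raised 5 and lowered 1 in WT. Over all tested genes in WT 2.07% were called higher and 0.938% lower. In nhr-178 mutants antimycin raised 1 of the 8 and lowered 1, where 2.05% of all tested genes were called higher and 0.656% lower. The gene that fell was col-10 in both, at -1.33 ± 0.33 in WT (adjusted p = 0.0255) and -2.60 ± 0.32 in nhr-178 mutants (adjusted p = 3.4e-06). No collagen fell in WT without replicate 2 or 3 of WT in antimycin, without replicate 3 of WT in DMSO or in a fit of both groups alone. Of 11 epidermal genes that do not cycle with the moult, 10 passed the filter without the nhr-45 libraries in antimycin, and antimycin raised 3 of these in nhr-45 mutants, with a median of 0.08, where 15.2% of all tested genes were called higher. The summed level of the 11 was 1284 to 1537 CPM in nhr-45 in antimycin and 1188 to 1480 CPM in nhr-45 in DMSO. Over all 11 the number raised was 4, and 1 without replicate 1 of nhr-45 in antimycin.

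Among genes that switch on at the adult stage, the yolk protein genes were lower in nhr-45 mutants in antimycin. Of 9 tested, 7 passed the filter without the nhr-45 libraries in antimycin, and antimycin lowered 6 of these in nhr-45 mutants. Over all tested genes 8.33% were called lower. The 6 were the yolk protein genes, with vit-3 lower at -2.12 ± 0.22 (adjusted p = 4.43e-08) and vit-4 at -1.74 ± 0.20 (adjusted p = 2.11e-07). In WT antimycin lowered 2 of the 7, and 2 over all 9 tested, where 0.938% of all tested genes were called lower. These were vit-3 at -1.10 ± 0.21 (adjusted p = 0.00206) and vit-1 at -1.01 ± 0.22 (adjusted p = 0.0083). Among other settings, the WT count lowered was 1 without replicate 2 or 3 of WT in antimycin and 5 with no filter. In nhr-178 mutants 0 of the 9 were called by edgeR, with 3 at an unadjusted p under 0.05. The vit genes are near-identical in part, so the split of reads among them is uncertain. col-19, the adult cuticle collagen that LIN-29 activates, was at 254 ± 18.7 CPM in nhr-45 in antimycin, 212 ± 15.7 CPM in nhr-45 in DMSO, 213 ± 6.85 CPM in WT in antimycin and 160 ± 16.01 CPM in WT in DMSO (SD, n = 3 each). Its log2 fold change in nhr-45 mutants was 0.26 ± 0.12 (adjusted p = 0.113). The other 2 entered the test only through the nhr-45 libraries in antimycin, where both were higher. They were bli-1, a strut collagen of the adult cuticle with 105 counts over nhr-45 in antimycin and 4 over nhr-45 in DMSO, and col-7, with 39 counts over nhr-45 in antimycin and 0 in every other group, both named after their values were seen. Neither was tested under a stricter filter. Over all 10 listed genes DESeq2 called 4 higher.

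**Figure D4:**
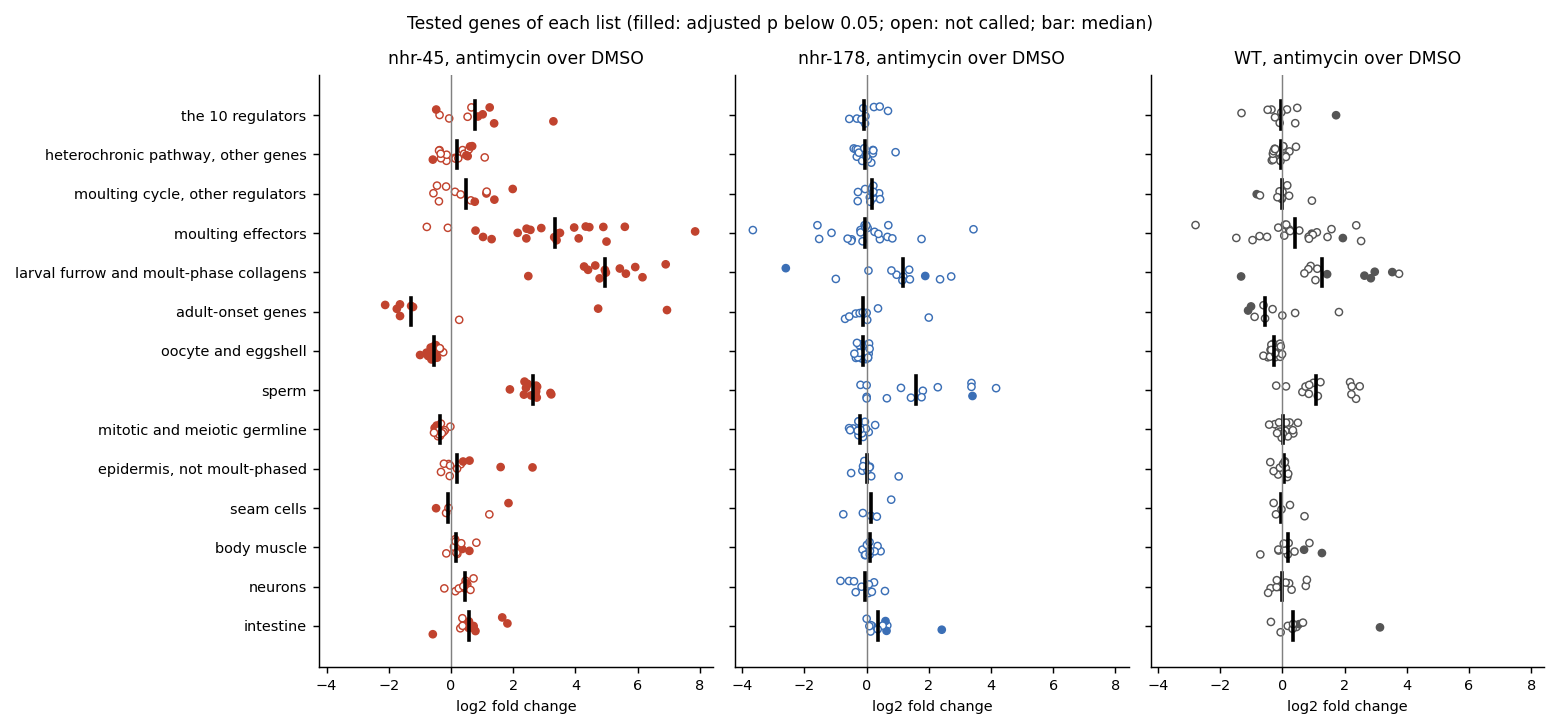
Log2 fold change for antimycin over DMSO (horizontal axes) in nhr-45, nhr-178 and WT animals of the 10 regulators and of each list, 1 point for a tested gene, filled where the adjusted p is below 0.05, with a bar at the median. In nhr-45 mutants the medians are 0.76 for the regulators, 0.19 for other heterochronic genes, 0.47 for other moulting regulators, 3.36 for moulting effectors and 4.96 for the collagens. Of the tested genes, 9 effectors and 4 collagens passed the filter only through the nhr-45 libraries in antimycin. Without them the medians are 2.42 for 13 effectors and 4.96 for 8 collagens.

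The genes whose pattern was most like that of a regulator were found by Pearson correlation of log2(CPM + 0.5) over the 18 libraries, as a description. For lin-42 they were grd-10, dpy-13 and col-97, at 0.95, 0.95 and 0.93, and over the 15 libraries without nhr-45 in antimycin the same genes had 0.80, 0.86 and 0.75. For lin-14 they were col-39, Y51H7C.13 and col-91, at 0.91, 0.90 and 0.90, but 0.38, 0.41 and 0.28 over the 15 libraries, so this likeness rests mostly on the nhr-45 libraries in antimycin. For lin-29 the first was exc-9 at 0.92 (0.72 over the 15), for bed-3 T06F4.1 at 0.89 (0.53), for grh-1 epic-2 at 0.89 (0.86), for lin-41 T10B11.8 at 0.89 (0.81) and for nhr-23 cep-1 at 0.85 (0.82). The libraries share groups and scaling, so these values carry no test.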

How the data were processed

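The authors deposited whole-number counts per gene for all 18 libraries in 1 table. The submitters' processing notes name Bowtie2, RSEM, DESeq2 and R 3.6.3 without roles. The build, strand use and treatment of multimapping reads were not given in the sources used here and can move counts between overlapping or similar genes; of the 10 regulators, 4 share exon bases with another counted gene. Symbols and positions come from the WBcel235 annotation, joined by identifier.

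A single edgeR model (version 4.0.16, R 4.3.3) held the 18 libraries, after filterByExpr by group and TMM scaling, with a mean for each group and 12 residual degrees of freedom, and was tested by quasi-likelihood. The biological coefficient of variation was 17.1%. P-values are two-sided and Benjamini-Hochberg adjusted over all 10981 tested genes within each of 10 comparisons. An SE is the log2 fold change over the square root of F, and intervals are 95%. Within groups, libraries differed by more than sampling noise (chi-square per degree of freedom 6.25 to 20.9), and all were kept as separate replicates. From each list of related genes, up to 4 called genes could be named, those of largest change whose mean reached 5 CPM. The members, lists, alternatives and rule for naming were chosen with earlier results of these data known. Promoters and proteins were not analysed here.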

Additional observations from a re-analysis of the deposited data

Results flagged for a closer look

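In the test of whether the response to antimycin differed between nhr-45 mutants and WT, 15 genes called by edgeR were flagged. They are the regulators called and, by the rule for naming, up to 4 called genes of each list. Their number is therefore set in part by that limit. Each is given here as the nhr-45 response minus the WT response on the log2 scale. Among the 10 regulators this was lin-14 at 0.95. In the other lists it was apl-1 at 0.93 in the heterochronic pathway, and pan-1 at 1.16 and ztf-6 at 0.95 among moulting regulators. Of the moulting effectors it was mlt-8 at 3.95, wrt-10 at 3.42, sym-1 at 2.54 and acn-1 at 2.34. Of the collagens it was col-10 at 6.10, sqt-3 at 3.82, col-12 at 3.54 and dpy-13 at 3.29. Of the adult-onset genes it was vit-4 at -1.14, vit-3 at -1.01 and vit-2 at -0.97. Among genes that pass the filter without the nhr-45 libraries in antimycin, 5 of 8 collagens, 8 of 13 effectors and 3 of 7 adult-onset genes were called, where 4.68% of all tested genes were called. Over all 22 effectors tested 11 were called, or 7 if replicate 1 of WT in DMSO was left out, and the adult-onset count was 0 if replicate 3 of nhr-45 in antimycin or replicate 1 of nhr-45 in DMSO was left out. The moulting regulators had 2 called of 12, and 1 without replicate 2 or 3 of nhr-45 in antimycin, replicate 1 or 3 of nhr-45 in DMSO, replicate 1, 2 or 3 of WT in antimycin, or replicate 1 or 3 of WT in DMSO.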

How the results depend on the processing

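The alternatives were DESeq2 size factors in edgeR, no filter, a stricter filter, DESeq2, a fit of the compared groups alone, the replicate number as a block, removal of both shallow libraries, and removal of each library in turn. No log2 fold change of the 10 regulators reversed where called; 37 calls were lost and 2 gained over these settings. lin-42, lin-29, lin-14, grh-1 and bed-3 kept their calls for antimycin in nhr-45 mutants in all 13 settings. The number of regulators called stayed within 1.5 times except as follows. For antimycin in WT it was 0 in the compared groups alone and 0 without both shallow libraries. For nhr-178 against WT in antimycin it was 0 with no filter, 0 in the compared groups alone, 0 with the replicate block and 0 without both shallow libraries. Leaving out 1 library gave 5 to 6 for antimycin in nhr-45 mutants, 0 to 1 in WT, 3 to 4 for nhr-45 against WT in antimycin, 6 to 7 for nhr-45 against nhr-178 in antimycin, 0 to 1 for nhr-178 against WT in antimycin, and 1 to 2 for the nhr-45 interaction. blmp-1 was called for nhr-45 against WT in antimycin without both shallow libraries (0.94, adjusted p = 0.0411). Between compared groups, libraries with the same replicate number did not deviate together (correlations -0.09 to 0.08), and the main fit did not pair them. Whether the numbers mark cultures grown together was not tested. The replicate block changed the call of 1 regulator, grh-1 for nhr-178 against WT in antimycin (adjusted p = 0.0534). The stricter filter left nhr-25 untested. Depth limits nhr-25, bed-3 and lin-42 most.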
